A study of Homo sapiens with 6 samples.

Results

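The contractile actin genes analyzed here are 10 genes, chosen by symbol as ACTA2, ACTN1, MYL9, TAGLN, TPM1, TPM2, TPM4, CNN1, CNN2 and VCL, and all 10 were found among the 27216 rows of the expression table. The table holds 6 RNA samples of H1975, a human lung adenocarcinoma line with mutant EGFR, which the labels give as WT for genotype. The 3 parental samples were taken at 0 h and the 3 adapted samples after 72 h of Osi (osimertinib, an EGFR tyrosine kinase inhibitor). No sample is labelled as 72 h without Osi, so effects of the drug and of 72 h in culture cannot be told apart. The labels give Osi and a dose of 1000 nM for all 6 samples, the parental ones with a time of 0 h. The table heads the parental columns with DMSO, and apoptotic cells were washed off before RNA extraction, so the adapted samples hold the cells that stayed attached. The labels also describe RNase R digestion, which degrades linear RNA, before library construction, while the study's methods do not mention it. The effect of this step on the values was not tested. All values come from 1 line in bulk, so fewer cells with a transcript and less of it per cell cannot be told apart, and nothing says whether the 3 samples of a group were separate cultures, so p-values measure only the spread between these samples.

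Filaments of actin are crosslinked by alpha-actinin, coated by tropomyosin, anchored to adhesions through vinculin and pulled by myosin II, whose activity follows phosphorylation of its regulatory light chain. Many of the genes for these proteins are targets of serum response factor (SRF), a transcription factor that binds the CArG box, and several of them (ACTA2, TAGLN, CNN1, MYL9) are used as markers of smooth muscle and myofibroblasts. SRF works with either of 2 kinds of partner. The myocardin-related factors MRTFA and MRTFB are held in the cytoplasm by monomeric actin and drive cytoskeletal genes, and the ternary complex factors (TCFs, such as ELK1) are phosphorylated by ERK, a kinase downstream of EGFR, and drive immediate early genes such as EGR1 and FOS.

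RefSeq promoter windows (GRCh38.p14, 250 bases before to 50 bases after each gene start) were matched for 8 of the 10 genes, 15 windows in all, and MYL9 and TAGLN had none. The CArG box was searched as CC, then 6 bases that are each A or T, then GG, which reads the same on both strands. It was found in 1 window each of TPM4, CNN2 and ACTN1, and in 1.29% of all 35116 windows. When 1 of the 6 core bases could be C or G, ACTA2 was added, with a pair of matches, and the share of all windows was 8.13%. These stretches are shown because SRF is the factor that the 10 genes are known to share, with CArG matches in capitals for TPM4, CNN2 and ACTN1, the pair of relaxed matches in capitals for ACTA2, and EGR1, a TCF target, for comparison.
TPM4 (chr19:16067335-16067404, plus strand): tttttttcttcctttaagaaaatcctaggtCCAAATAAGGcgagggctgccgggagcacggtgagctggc
CNN2 (chr19:1026489-1026558, plus strand): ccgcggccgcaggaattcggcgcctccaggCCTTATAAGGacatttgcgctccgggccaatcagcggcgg
ACTN1 (chr14:68977698-68977767, minus strand): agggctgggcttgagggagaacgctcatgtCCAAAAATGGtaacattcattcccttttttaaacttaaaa
ACTA2 (chr10:88952805-88952924, minus strand): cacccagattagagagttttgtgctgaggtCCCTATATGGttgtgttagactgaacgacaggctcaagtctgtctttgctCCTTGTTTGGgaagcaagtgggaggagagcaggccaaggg
EGR1 (chr5:138465344-138465435, plus strand): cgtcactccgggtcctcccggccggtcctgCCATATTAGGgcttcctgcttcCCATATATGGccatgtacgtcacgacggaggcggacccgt

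The 10 genes did not move as 1 group in adapted cells. MYL9, TAGLN, TPM1 and ACTN1 rose, TPM2, TPM4 and VCL fell, ACTA2 and CNN2 did not pass the test, and CNN1 was too low to be tested. Values are log2(FPKM + 1) as deposited, where FPKM counts fragments relative to transcript length and to the sample's total. The authors do not name the scale, and it was read from the values. The test (limma, adjusted p under 0.05) took in the 12656 rows with a 6-sample mean of 1 or more on this scale, and 9 of the 10 genes were among them. Of these 9, 4 rose and 3 fell, where 30.7% of all rows tested rose and 26.2% fell (56.9% in either direction). A rise of at least 1 on the log2 scale past the threshold was found in 5.31% of all rows tested, and MYL9, TAGLN and TPM1 reached it, while ACTN1 (0.999) lay just short of it. The groups did not overlap in 7 of the 9 genes, against 66.3% of all rows tested. The median log2 fold change of the 9 genes was 0.14, and that of all rows tested was 0.028. Summed over the 10 genes, FPKM was 436 to 448 in parental and 576 to 633 in adapted samples.

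**Figure D1:**
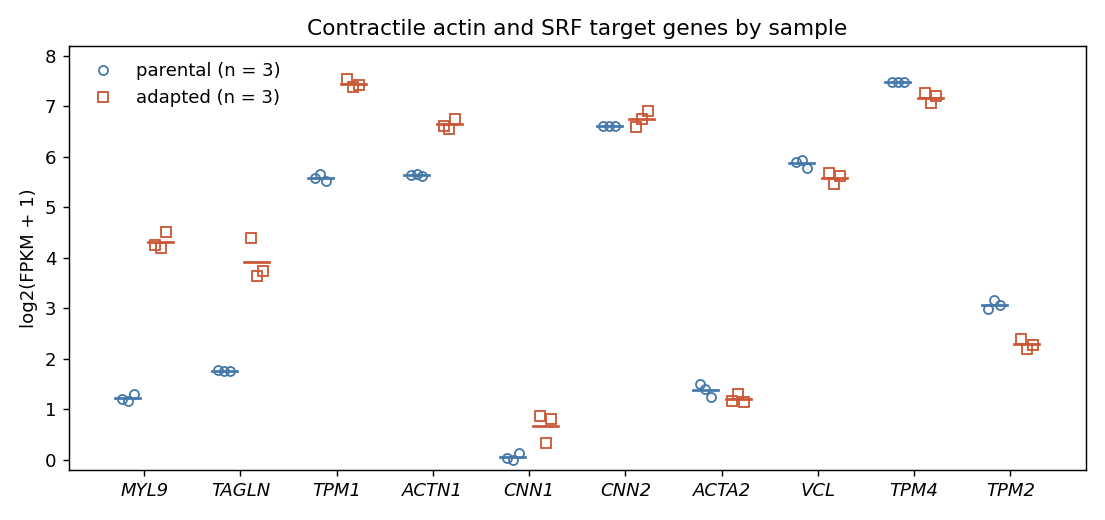
Level of each of the 10 genes on the log2(FPKM + 1) scale in the 3 parental samples (circles) and the 3 adapted samples (squares), with bars at the group means. Adapted MYL9 sits between 4.20 and 4.51 against 1.16 to 1.29 in parental samples, while the groups of ACTA2 and CNN2 overlap.

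MYL9, the regulatory light chain of smooth muscle and nonmuscle myosin II, lies on chromosome 20 from 36541484 to 36551447 on the plus strand (GENCODE v29, GRCh38). Its log2(FPKM + 1) was 1.21, 1.16 and 1.29 in the parental samples and 4.25, 4.20 and 4.51 in the adapted samples. No adapted value came near a parental one. On the linear scale this was 1.33 ± 0.113 FPKM against 19.0 ± 2.35 FPKM (SD, n = 3 each), a ratio of 14.3. The log2 fold change was 3.10 (SE 0.10, limma, adjusted p = 1.72e-06), the largest of the 9 genes and the 27th highest of all rows tested.

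TAGLN (transgelin, also called SM22 alpha), an actin-binding protein of the calponin family and an early marker of smooth muscle, lies on chromosome 11 from 117199321 to 117204782 on the plus strand. It was 1.78, 1.75 and 1.75 on the log2(FPKM + 1) scale in parental samples and 4.39, 3.63 and 3.73 in adapted samples. Adapted replicate 1 was the highest, and all 3 adapted samples lay above all parental ones. The means were 2.39 ± 0.0472 and 14.5 ± 4.68 FPKM (SD, n = 3 each), and the log2 fold change was 2.16 (SE 0.19, limma, adjusted p = 9.22e-05). Of the annotated exon bases of TAGLN, 11.4% are shared with PCSK7 on the opposite strand. PCSK7 also rose, by 0.71 on the log2 scale (adjusted p = 2.93e-04). Whether the counting used strand is not given in the sources used here, and the part of PCSK7 in the TAGLN value was not tested.

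The tropomyosins coat actin filaments and set which myosins and crosslinkers reach them. TPM1 (chromosome 15, 63042632 to 63071915, plus strand) had parental log2(FPKM + 1) values of 5.58, 5.66 and 5.53 and adapted values of 7.54, 7.38 and 7.43. The groups were far apart, at means of 47.3 ± 2.19 and 174 ± 10.2 FPKM (SD, n = 3 each), with a log2 fold change of 1.86 (SE 0.07, limma, adjusted p = 2.97e-06). TPM2, the beta-tropomyosin of muscle, moved the other way. On chromosome 9 from 35681992 to 35690121 (minus strand), it was 2.99, 3.17 and 3.06 in parental and 2.39, 2.19 and 2.28 in adapted samples on the log2(FPKM + 1) scale. It fell by 0.79 on the log2 scale (SE 0.08, limma, adjusted p = 2.36e-04), with no overlap between groups, from 7.43 ± 0.545 to 3.89 ± 0.331 FPKM (SD, n = 3 each). TPM4 is found in most nonmuscle cells and lies on chromosome 19 from 16067021 to 16103005 on the plus strand. Its 3 parental values were all 7.48 on the log2(FPKM + 1) scale, and its adapted values of 7.27, 7.06 and 7.20 were all below them. It fell by 0.30 on the log2 scale (SE 0.07, adjusted p = 0.00861), from 177 ± 0.218 to 144 ± 10.6 FPKM. Of the exon bases of TPM1, 16.1% are shared with the antisense gene TPM1-AS, whose part in the TPM1 value was not tested. Each of these genes has transcripts that differ by alternative exons and starts, which a value per gene cannot separate.

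ACTN1, the alpha-actinin that crosslinks actin at adhesions and stress fibers, is a minus-strand gene of chromosome 14 (68874143 to 68979440). Its log2(FPKM + 1) was 5.65, 5.66 and 5.63 in parental and 6.62, 6.56 and 6.76 in adapted samples. Every adapted sample was higher, with an FPKM ratio of 2.02 (log2 fold change 1.0, SE 0.07, limma, adjusted p = 3.15e-05). VCL (vinculin), which links talin and alpha-catenin to actin, lies on chromosome 10 from 73995193 to 74121363 on the plus strand. It was 5.89, 5.94 and 5.79 in parental and 5.68, 5.47 and 5.62 in adapted samples on the same scale. The groups were separate but close, and VCL fell by 0.29 on the log2 scale (SE 0.08, limma, adjusted p = 0.014). VCL lost this call without parental replicate 1 (adjusted p = 0.0532) or parental replicate 2 (0.0628). Of the annotated exon bases of VCL, 11.1% are shared with AP3M1 on the opposite strand, which rose by 0.26 on the log2 scale (adjusted p = 0.0152), and the part of AP3M1 in the VCL value was not tested.

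ACTA2, the smooth muscle alpha-actin by which myofibroblasts are usually recognized, is a minus-strand gene of chromosome 10 (88935074 to 88991339). Its values stayed low, at 1.49, 1.39 and 1.25 in parental and 1.17, 1.30 and 1.15 in adapted samples on the log2(FPKM + 1) scale, and the groups overlapped. The log2 fold change was -0.17 (95% confidence interval -0.40 to 0.06, limma, adjusted p = 0.176), an interval that leaves out any rise as large as those of MYL9, TAGLN, TPM1 or ACTN1. Its annotated exons share 17.3% of their bases with the antisense gene ACTA2-AS1 and 12.8% with FAS on the opposite strand, and FAS fell by 0.71 on the log2 scale (adjusted p = 2.57e-04). The part of FAS in the ACTA2 value was not tested.

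The calponins bind actin and slow the myosin ATPase. CNN1, the smooth muscle calponin (chromosome 19, 11538717 to 11550323, plus strand), was at 0.0228, 0 and 0.0997 FPKM in parental samples and at 0.819, 0.26 and 0.741 FPKM in adapted samples. The groups did not overlap, but every value was below 1 FPKM, and CNN1 was tested only when the filter on low values was dropped (log2 fold change 0.61, adjusted p = 0.0188 over 23902 rows). CNN2, the calponin of nonmuscle cells (chromosome 19, 1026581 to 1039068, plus strand), had parental values that were all 6.62 and adapted values of 6.59, 6.76 and 6.92 on the log2(FPKM + 1) scale. The adapted samples spanned the parental level, with a log2 fold change of 0.14 (95% confidence interval -0.07 to 0.34, adjusted p = 0.209). Without adapted replicate 1, CNN2 passed the test (log2 fold change 0.22, adjusted p = 0.0134).

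**Figure D2:**
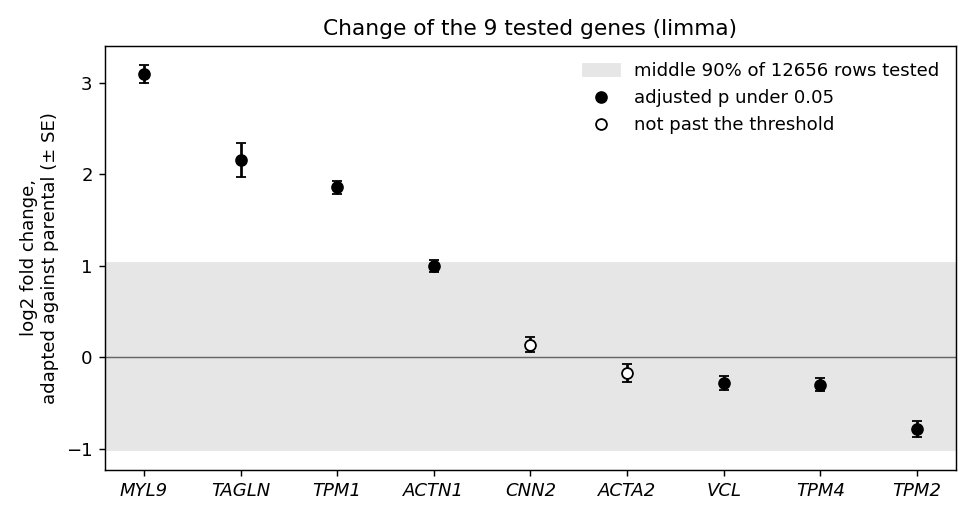
Log2 fold change of the 9 tested genes, adapted against parental (limma, bars show the SE, filled points are past an adjusted p of 0.05), with the middle 90% of all 12656 rows tested shaded (-1.02 to 1.03). MYL9, TAGLN and TPM1 lie above the shaded band, and ACTN1 lies at its upper edge.

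On the linear FPKM scale, which allows genes to be set side by side, the order of the levels changed. In parental cells TPM4 was the highest of the 10 genes, followed by CNN2 (97.4 ± 0.248 FPKM), VCL (57.7 ± 2.94), ACTN1 (49.2 ± 0.583) and TPM1 (SD, n = 3 each). ACTN1 and TPM1 did not differ beyond their spread there (48.5 to 49.7 and 45.2 to 49.6 FPKM), nor did ACTA2 and MYL9 (1.38 to 1.81 and 1.23 to 1.45 FPKM). In adapted cells TPM1 came first, above TPM4 (165 to 185 against 133 to 153 FPKM). CNN2 and ACTN1 overlapped next (95.6 to 120.1 and 93.5 to 107 FPKM), and VCL followed at 47.2 ± 3.55 FPKM. MYL9 and TAGLN overlapped at 17.3 to 21.7 and 11.4 to 19.9 FPKM. TPM2, ACTA2 (1.31 ± 0.129 FPKM) and CNN1 made up the low end.

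Most of these genes have close relatives, and the share of each in the summed FPKM of its family does not depend on a scaling factor between samples. Differences in shares were tested with a two-sided exact permutation test, which cannot give a p below 0.1 for 3 samples against 3. The largest difference among the 7 families, 24.7 percentage points, was that of TPM1. TPM1 held 13.6, 12.8 and 11.6% of tropomyosin FPKM in parental samples and 37.3, 35.9 and 38.8% in adapted samples (exact p = 0.1). TPM4 went the other way, from 51.2, 45.9 and 45.4% to 30.9, 28.8 and 33.1% (exact p = 0.1), so that TPM4 led in parental and TPM1 in adapted cells. TPM2 held 1.99 ± 0.101% and 0.835 ± 0.0518% (SD, n = 3 each). TPM3, whose values were spread within both groups, had a log2 fold change of 0.02 (SE 0.15, limma, adjusted p = 0.91). The family sum was 346 to 391 FPKM in parental and 442 to 496 FPKM in adapted samples.

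Among alpha-actinins, the share of ACTN1 went from 26.4 ± 0.12% to 39.6 ± 0.406% (SD, n = 3 each, exact p = 0.1). The rest was almost all ACTN4, the other nonmuscle alpha-actinin, which had a log2 fold change of 0.14 (SE 0.06, adjusted p = 0.0864). The calponins showed a shift that the 10 genes do not hold by themselves. CNN3, the acidic calponin, rose from 20.9 to 62.3 FPKM (log2 fold change 1.53, SE 0.07, limma, adjusted p = 7.53e-06), and its share went from 17.7 ± 0.445% to 36.6 ± 3.85%. The share of CNN2 went from 82.3 ± 0.414% to 63.0 ± 3.98%, while CNN1 stayed under 1% of calponin FPKM in every sample, at most 0.501%.

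The smooth muscle forms stayed a small part of their families even where they rose most. MYL9 held 0.507, 0.47 and 0.566% of myosin regulatory light chain FPKM in parental samples and 4.77, 4.50 and 5.50% in adapted samples (exact p = 0.1). Its relatives MYL12A and MYL12B, the light chains of nonmuscle cells, rose by 0.53 (adjusted p = 2.49e-04) and 0.49 (adjusted p = 4.55e-04) on the log2 scale. The family sum therefore went from 259 ± 2.25 to 386 ± 8.63 FPKM (SD, n = 3 each). TAGLN held 0.765 ± 0.0119% of transgelin FPKM in parental and 4.66 ± 1.31% in adapted cells (exact p = 0.1), and TAGLN2 held nearly all the rest, with a log2 fold change of -0.07 (SE 0.07, adjusted p = 0.417). Among actins, ACTA2 held 0.0328 to 0.045% in parental and 0.0344 to 0.0396% in adapted samples. Cytoplasmic ACTB and ACTG1 made up nearly the whole family. ACTG1 fell by 0.58 on the log2 scale (adjusted p = 0.00187), ACTB had a log2 fold change of -0.03 (SE 0.12, adjusted p = 0.858), and the sum of actin FPKM was 4031 to 4467 in parental and 3333 to 3681 in adapted samples. VCL held 25.8 ± 1.05% of the FPKM of vinculin and the alpha-catenins in parental and 21.6 ± 2.16% in adapted cells (exact p = 0.1), with CTNNA1, the epithelial alpha-catenin, at 78.4 ± 2.16% in the latter. Reads of near-identical stretches may be split among relatives and pseudogenes, and how they were counted is not given in the sources used here.

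**Figure D3:**
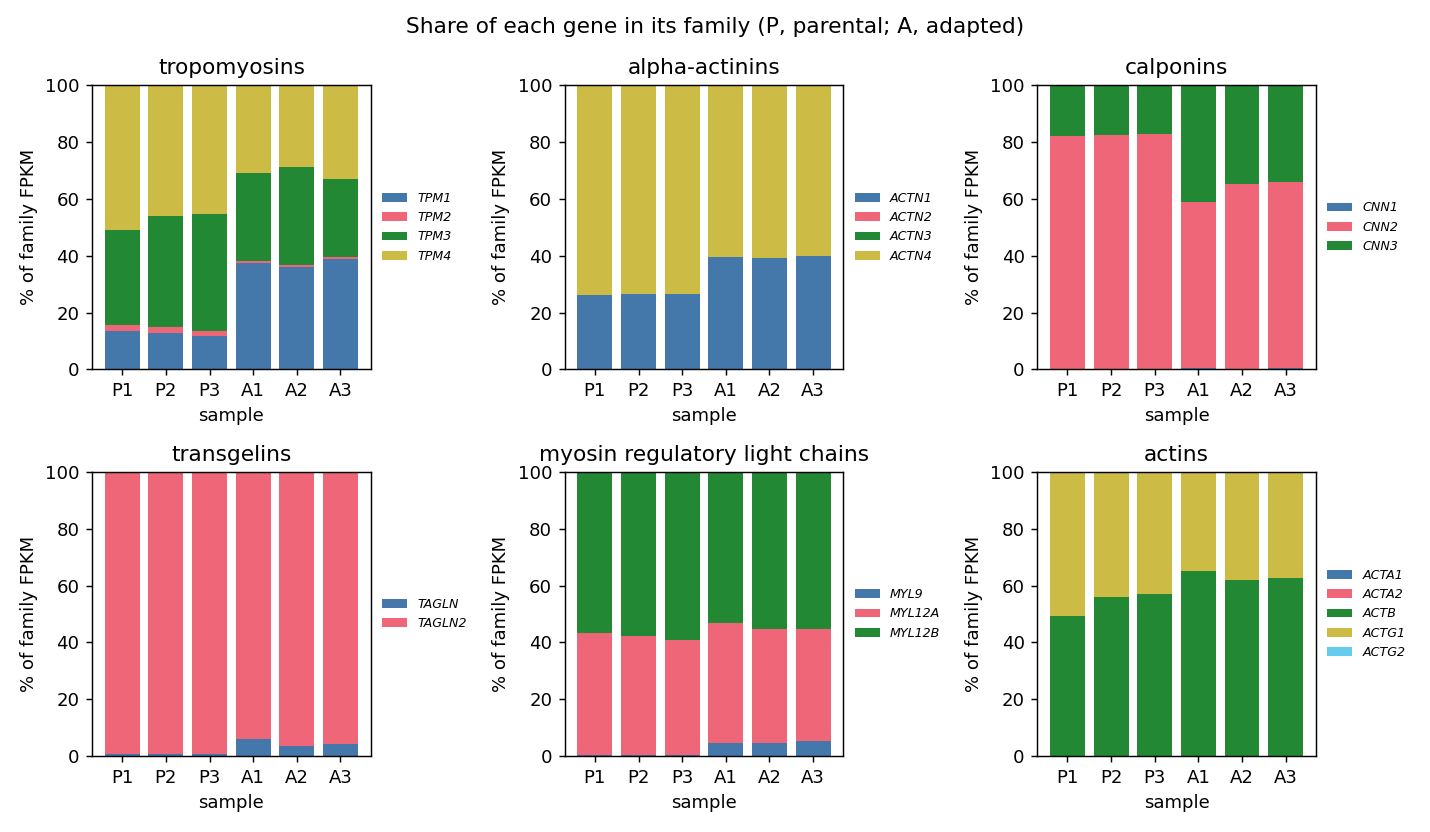
Share of each gene in the summed FPKM of its family (percent, stacked) in the 3 parental samples (P1 to P3) and the 3 adapted samples (A1 to A3). TPM1 grows from 11.6 to 13.6% of tropomyosin FPKM to 35.9 to 38.8%, while MYL9 and TAGLN remain thin layers and ACTA2 is too small to be seen.

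Other targets of SRF were read in the same fit, in hand-written lists. Of 22 other genes known as targets of SRF with MRTF, 20 were tested, 12 rose and 5 fell, where 30.7% of all rows tested rose and 26.2% fell, and the median log2 fold change was 0.36. The largest rises were in the matricellular genes CCN2 and CCN1, listed under their older symbols CTGF and CYR61, and in FHL1, a LIM domain protein of muscle. CTGF was 1.03, 1.27 and 1.08 in parental and 4.50, 4.11 and 3.96 in adapted samples on the log2(FPKM + 1) scale. CYR61 rose by 2.11 (adjusted p = 2.17e-06) and FHL1 by 2.09 (adjusted p = 1.29e-04) on the log2 scale. CCN1 and CCN2 are also targets of YAP and TAZ. The largest falls were in FHL2, a LIM domain cofactor (-0.83, adjusted p = 1.72e-04), ACTG1 and LIMA1, an actin crosslinker (-0.42, adjusted p = 0.00237). MYH9, a heavy chain of nonmuscle myosin II, rose by 1.16 (adjusted p = 9.58e-06). MYLK, the kinase that phosphorylates the light chain encoded by MYL9, rose by 1.65 (adjusted p = 3.20e-05). Both were named after their values were seen.

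Of 10 immediate early genes, known as SRF targets of the TCF kind, 6 were tested and these 6 fell, where 26.2% of all rows tested fell. Their median log2 fold change was -1.63, and that of all rows tested was 0.028. EGR1, FOS and NR4A1, a nuclear receptor, passed the filter only through the parental samples, where they were high, so their fall is in part fixed by the filter and the count and median are a description. Without the filter 8 of the 10 fell and 0 rose, with a median of -0.58 over all 10, where 8759 of 23902 rows passed in either direction. With a mean of at least 3 required 3 were tested, all 3 fell and the median was -0.87, where 4532 of 7693 rows passed in either direction. EGR1, a zinc finger transcription factor, was 4.21, 4.19 and 4.14 in parental and 0.34, 0.15 and 0.28 in adapted samples on the log2(FPKM + 1) scale. FOS, a subunit of AP-1, fell by 2.37 (adjusted p = 1.99e-06) and JUNB, its partner, fell by 2.00 (adjusted p = 4.93e-06) on the log2 scale. EGR2, EGR3, EGR4 and FOSB were below the filter.

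SRF itself was 4.03, 4.03 and 3.99 in parental and 3.82, 3.51 and 3.76 in adapted samples on the log2(FPKM + 1) scale, all adapted samples being lower. It fell by 0.32 on the log2 scale (SE 0.09, limma, adjusted p = 0.0183), a call that was lost without parental replicate 1 (adjusted p = 0.0619), 2 (0.0612) or 3 (0.0501). Of its 6 cofactors 5 were tested. MRTFA rose from 3.37, 3.33 and 3.35 to 4.21, 4.29 and 4.39 (log2 fold change 0.95, SE 0.07, adjusted p = 4.05e-05). MRTFB had a log2 fold change of -0.08 (SE 0.09, adjusted p = 0.50). ELK4, a TCF, fell by 0.31 (adjusted p = 0.027), a call lost when parental replicate 1 (0.0978) or 2 (0.0791) or adapted replicate 3 (0.0746) was left out. MYOCD, the cofactor of smooth muscle and heart, was below the filter, at a mean of 0.0529 FPKM in parental and 0.0201 FPKM in adapted cells.

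Genes with a CArG box in their promoter windows went both ways. Of the 3 genes that hold it among the 10, ACTN1 rose, TPM4 fell and CNN2 did not pass the test. In the list of other MRTF targets, 6 tested genes held it, of which 3 rose and 3 fell. Among all tested genes with a window, 31.7% of the 145 with a match rose and 30.3% fell, and of the 9190 without a match 30.9% rose and 26.6% fell. CATTCC, the motif of the TEAD partners of YAP, or its complement GGAATG was in windows of ACTA2, ACTN1 and VCL and in 14.0% of all windows. It did not overlap the CArG match of ACTN1 or the relaxed matches of ACTA2, and VCL held neither kind of CArG match. No match says only that these letters are not in the window, and the enhancers and introns where SRF sites of some of these genes are known to lie were not searched.

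Of 18 regulators of actin monomers and filaments, 16 were tested, 2 rose and 5 fell. Of all rows tested 30.7% rose and 26.2% fell. Without adapted replicate 1, 5 regulators rose and 8 fell, where 8370 of all 12656 rows passed in either direction in place of 7202. When any 1 parental replicate was left out, 1 or 2 regulators fell, where 5763 to 5855 rows passed. GSN (gelsolin), which severs filaments, rose by 0.91 (adjusted p = 7.59e-04). CAPZA2, a subunit of the protein that caps filament ends, fell by 0.41 (adjusted p = 0.0195), and ARPC2 and ACTR2, subunits of the Arp2/3 complex that branches filaments, fell by 0.35 (adjusted p = 0.00207) and 0.26 (adjusted p = 0.0188), all on the log2 scale. ARPC5, another subunit of that complex, rose by 0.36 (adjusted p = 0.00214). CAPZA2 and ACTR2 lost their calls when any 1 parental replicate was left out (adjusted p from 0.051 to 0.0715). Of 21 focal adhesion linkers, 17 were tested, 8 rose and 4 fell (median 0.25), and the muscle filamin FLNC had a log2 fold change of 1.51 (adjusted p = 2.89e-04).

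The rises in MYL9 and TAGLN were set beside markers of smooth muscle, of fibroblasts and pericytes, of endothelium and leukocytes, and of epithelium. Of 10 genes of smooth muscle differentiation, 3 passed the filter, CSRP1 (log2 fold change 0.85, adjusted p = 5.04e-05) and SYNM (0.52, adjusted p = 0.00126) rose, and SMTN had -0.17 (adjusted p = 0.174). The defining genes MYH11 (0.0721 and 0.058 FPKM in parental and adapted cells) and DES (0.00769 and 0.0259 FPKM) were near 0. Of 10 fibroblast and pericyte markers only COL1A1 passed the filter, from 3.06 to 7.86 FPKM (adjusted p = 7.80e-05). The summed list was 3.25 to 3.62 FPKM in parental and 9.41 to 9.74 FPKM in adapted samples, with COL1A2, DCN and PDGFRB below 0.1 FPKM in every group mean and THY1 listed at 0 in all samples. LUM (lumican), also below the filter, went from 0.0376 to 0.531 FPKM without overlap between groups. Without the filter 2 genes of the fibroblast and pericyte list rose, where 8759 of 23902 rows passed in either direction. COL3A1, also below the filter, was at 1.37 on the log2(FPKM + 1) scale in adapted replicate 1 and at 0.17 and 0.11 in adapted replicates 2 and 3. TAGLN was highest in adapted replicate 1, while MYL9 was highest in adapted replicate 3 (4.51, against 4.25 in adapted replicate 1). Endothelial and leukocyte markers summed to 76.8 to 79.1 FPKM in parental and 18.4 to 31.3 FPKM in adapted samples, mostly CD68, which fell by 1.85 on the log2 scale (adjusted p = 3.63e-04) and alone passed the filter. The endothelial genes CDH5 (0.156 ± 0.0437 and 2.39 ± 1.0 FPKM in parental and adapted cells, SD, n = 3 each) and VWF (0.0202 and 0.181 FPKM) went the other way. PECAM1, also endothelial and below the filter, went down with CD68, from 1.35 ± 0.325 to 0.0634 ± 0.0113 FPKM. The leukocyte markers CD14 (0.703 and 0.155 FPKM) and CD79A (0.432 and 0.042 FPKM), also below the filter, went down too. The groups did not overlap in any of these genes. Without the filter 2 genes of this list rose and 4 fell, where 8759 of 23902 rows passed in either direction. All 10 epithelial markers were tested, 1 rose and 4 fell, where 30.7% of all rows tested rose and 26.2% fell. Without adapted replicate 1, 3 of them rose, where 8370 of all 12656 rows passed in either direction. EPCAM (log2 fold change -0.15, adjusted p = 0.162) and CDH1 (0.01, adjusted p = 0.972) did not pass, and ESRP1, an epithelial splicing regulator, fell by 1.08 (adjusted p = 7.95e-04). Of the keratins, KRT7 rose by 1.07 (adjusted p = 2.19e-04). KRT19 fell by 0.75 (adjusted p = 4.74e-04), KRT18 by 0.57 (adjusted p = 0.00427) and KRT8 by 0.28 (adjusted p = 0.0477). The part of these markers in the changes of the contractile genes was not tested.

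Adapted replicate 1 stood somewhat apart. Across all rows, it correlated with the other adapted replicates at r = 0.9909 and 0.9906, those 2 with each other at 0.9961, and the parental samples among themselves at 0.9972 to 0.9975. Without it, MYL9, TAGLN, TPM1 and ACTN1 were still called higher, and TPM2, TPM4 and VCL lower. No values of depth in reads were analyzed, so the spread between samples is the only error given.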

How the data were processed

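RNA of 3 parental (0 h) and 3 adapted (72 h of Osi) samples was sequenced. The methods give total RNA, while the labels describe RNase R digestion before library construction. The authors deposited 1 table of log2 values with 1 column per sample, mapped by group name and replicate number. Submitters' processing notes list hg38, Bowtie2 2.1.0, STAR and edgeR without roles, and the methods name DESeq2; counter and annotation are not given in the sources used here. The scale was read as log2(FPKM + 1), since 2 to the value, less 1, had 6 decimals in all samples for 27069 of 27216 rows. In the other 147 rows, 1 constant per row had been added to 1 group; none of the 10 genes is among them. Linear values summed to 375342 to 387753 per sample, and depth is unknown.

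Because count tests need counts, limma 3.58.1 (R 4.3.3; lmFit, eBayes with trend, unpaired, Benjamini-Hochberg) was fitted to rows with a mean of at least 1, and tested on simulated data. Fold changes understate the change of low genes. The 10 genes and the lists were chosen with earlier results of these data known. Named genes are the 10, their family members, SRF, MRTFA, MRTFB, MYOCD, EGR1, FOS, and up to 3 risers and 3 fallers per list without overlap between groups, except where stated. Further cell type markers were named after their values were seen. A few list results are not reported here.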

Additional observations from a re-analysis of the deposited data

How the results depend on the processing

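The directions of the 9 tested genes held under every alternative in which they were tested: pseudocount 0.1, no filter, a stricter filter, 3 other scalings, 2 other eBayes settings, the replicate block, leaving out each sample, and leaving out or correcting rows with a constant. Only VCL and CNN2 changed calls, as given above. With a mean of at least 3 required, 5 of the 10 genes were tested: 2 rose in place of 4 because MYL9 and TAGLN were no longer tested, 2 fell in place of 3 because TPM2 was not, and ACTA2 was not tested either, and 4532 rows passed in place of 7202. Leaving out 1 sample gave 5763 to 8370 rows. MRTFB ranged from -0.13 to 0.02 when 1 sample was left out, changing sign without adapted replicate 1 (0.02, adjusted p = 0.737). Deviations of same-numbered samples correlated at -0.0509 to -0.0203, so no effect shared by equal numbers was seen. This cannot exclude that samples of equal number came from the same culture or batch. With the replicate block 6761 rows passed, and again 4 of the 10 genes rose and 3 fell. Differences in family shares kept their direction under the alternatives run on them, except that shares too small to read, such as that of ACTA2 (difference -0.00107 percentage points), were not judged.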

Other observations

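The genes whose profile over the 6 samples was most like the mean profile of the 10 contractile genes were sought among 7474 named genes that are on no list and average 3 or more on the log2(FPKM + 1) scale. They were MAP2K2, RCAN1, SGSH, PLBD2 and CXCL16, with Pearson's r from 0.9986 to 0.9999 over 6 samples. MAP2K2 (MEK2, a kinase of the ERK cascade) was 5.74, 5.76 and 5.73 in parental and 6.47, 6.30 and 6.45 in adapted samples. Its adapted values carry an added constant of 0.65, and its log2 fold change was 0.66, so nearly all of its step is that constant. RCAN1, an inhibitor of calcineurin, was 2.77, 2.83 and 2.82 in parental and 4.04, 3.78 and 4.03 in adapted samples. The shared shape of the values as deposited is a step between the groups with adapted replicate 2 lowest of the adapted samples. Any gene with such a step has a high r with 2 groups of 3, so these values are a description only.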
